A study of Homo sapiens with 9 samples.

Results

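Expression of 9 genes that encode enzymes of the tricarboxylic acid (TCA) cycle was followed in cells of the established line MDA-MB-231, which derives from a triple-negative breast cancer. The genes CS, IDH3A, IDH3B, OGDH, DLST, SUCLG1, SUCLA2, FH and MDH2 were taken by name out of 27615 genes in the longest of the 9 deposited gene lists. Libraries were made in triplicate (3 per treatment) from cells given DMSO as vehicle, rimonabant or the compound TXX-1-10, and all groups share the same unmodified cell line. Rimonabant blocks CB1, a cannabinoid receptor. TXX-1-10 derives from rimonabant and came from a screen for molecules that lower the protein HPIP. Dose and duration for the sequenced cells are not given in the sources used here, so whether the 2 compounds were given at matched doses is unknown. Nothing states that the 3 libraries of a treatment came from separate cultures, and p-values then measure only the spread between these libraries. All results come from a single cell line.

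The TCA cycle runs in the mitochondrial matrix, where it oxidises the acetyl group of acetyl-CoA to carbon dioxide and passes electrons to the respiratory chain. Citrate synthase (CS) opens the cycle by joining acetyl-CoA to oxaloacetate. Isocitrate dehydrogenase, built from IDH3A, IDH3B and IDH3G, and the oxoglutarate dehydrogenase complex, which contains OGDH and DLST, then release carbon dioxide. Succinate-CoA ligase (SUCLG1 with SUCLA2 or SUCLG2) forms a nucleoside triphosphate, fumarate hydratase (FH) makes malate, and malate dehydrogenase (MDH2) restores oxaloacetate. In tumour cells the cycle also supplies carbon for lipids, amino acids and nucleotides.

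The library total behind each FPKM value (reads scaled by gene length and library total) lay between 17078370 and 19277808. It was below the sum of the listed counts in vehicle replicates 1 and 3 (17078370 against 17492638 in replicate 1) and above it in the other libraries (18394759 against 16836181 in TXX-1-10 replicate 2), so it is not the sum of reads assigned to genes, and its relation to that sum differed between the groups. The lists stop at different depths, and the shortest, rimonabant replicate 1, ends after 4237 genes. Hence 7 members could be tested in all 9 libraries, whereas IDH3A and SUCLA2 are absent from that list and were tested in the other 8. A missing line is not a zero. In rimonabant replicate 1 and TXX-1-10 replicate 3, counts relative to the other libraries of the same group fell with gene length (Spearman rho of -0.69 in both, across 4237 genes), and comparisons were therefore also made without these 2 libraries. The epithelial and mesenchymal genes expected in the line were high in all 9 libraries, with VIM between 224 and 329 FPKM, CD44 between 27.4 and 48.2 FPKM and KRT18 between 39.5 and 76.9 FPKM. ERBB2 lay between 7.0 and 9.52 FPKM, and COL1A1, a fibroblast gene, reached 0.798 FPKM in the 7 libraries that list it. The receptor genes ESR1 and PGR, the leukocyte gene PTPRC and the endothelial gene PECAM1 did not exceed 0.172 FPKM in the 4 or 5 libraries that list them.

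In vehicle-treated cells the members spanned a wide range of levels per length. FH was the most abundant at 72.2 ± 2.93 FPKM (SD, n = 3), followed by MDH2 at 67.3 ± 2.15, and the libraries of these neighbours overlapped. DLST (50.4 ± 1.33 FPKM), IDH3B (43.4 ± 1.46 FPKM), OGDH (37.6 ± 1.2 FPKM) and CS (33.1 ± 0.556 FPKM) followed without overlap. SUCLG1 was lower at 13.7 ± 0.571 FPKM, and the lowest levels were those of IDH3A (5.40 ± 0.302 FPKM) and SUCLA2 (3.39 ± 0.0431 FPKM). The gene length in these values is the union of all annotated exons, from 2142 bases for FH to 8928 bases for SUCLA2, so unused exons lower the value of a gene. The order changed under TXX-1-10: MDH2 was first at 53.6 ± 6.33 FPKM (n = 3), and FH fell to the fourth place at 36.3 ± 2.10 FPKM, overlapping IDH3B at 37.7 ± 2.36 FPKM. Under rimonabant, FH (60.1 ± 3.73 FPKM, n = 3), MDH2 (59.9 ± 7.48 FPKM) and DLST (55.9 ± 0.591 FPKM) were at the top, and the libraries of MDH2 overlapped those of both others. CS, SUCLG1, IDH3A and SUCLA2 filled the last 4 places in this order in each group.

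**Figure D1:**
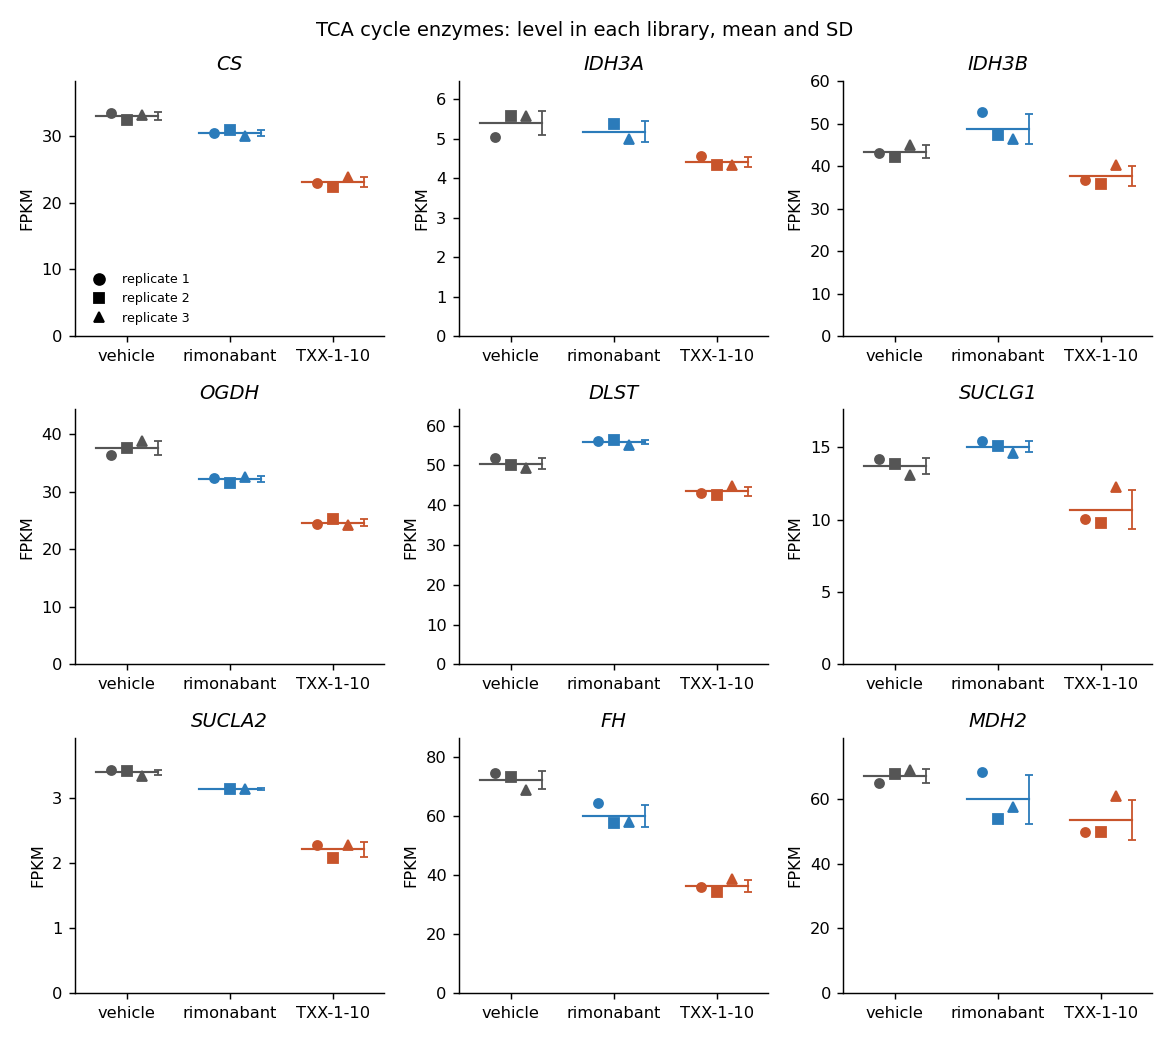
FPKM (vertical axes, starting at 0) of the 9 TCA cycle enzymes in each library, by treatment. Points are libraries with a symbol for each replicate number, horizontal lines are group means and bars are SD. IDH3A and SUCLA2 have 2 rimonabant libraries. TXX-1-10 libraries lie below the vehicle libraries for every gene.

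Transcripts of all 9 members were lower with TXX-1-10 than with vehicle, by amounts that depended on how the libraries were scaled. By edgeR's quasi-likelihood test with Benjamini-Hochberg adjustment over 4236 genes, 7 of 7 members tested in all libraries fell, with log2 fold changes between -0.99 and -0.21 and a median of -0.36. Over all tested genes the median was -0.09, and 43.8% passed the same test in the downward direction. In the wider fit of 9369 genes in 8 libraries, 9 of 9 members fell, against 40.6% of all genes. With the summed counts of the common genes as library size, IDH3B (log2 fold change -0.03), DLST (-0.04), IDH3A (-0.15) and MDH2 (-0.16) no longer passed. No member reached a 2-fold change in these fits, as 11.8% of genes did in either direction (12.7% in the wider fit). FH reached it without vehicle replicate 3 (log2 fold change -1.03) or TXX-1-10 replicate 3 (-1.04). It also did so without both libraries that fall with length (-1.04), and stayed short of it in the other settings. Libraries of the 2 groups did not overlap for any of the 9 members, and the same held, in the downward direction, for 46.3% of genes in the first fit and 41.2% in the wider fit. In bulk RNA, fewer cells expressing a gene and less of its RNA per cell cannot be told apart. The summed FPKM of the 7 members was 319, 317 and 317 in the vehicle libraries and 223, 220 and 245 in the TXX-1-10 libraries. The corresponding rimonabant sums were 320, 293 and 294, of which the highest is replicate 1.

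FH, which hydrates fumarate to malate, showed the largest fall of the 9. Its FPKM was 74.6, 73.2 and 68.9 with vehicle, 64.4, 57.8 and 58.1 with rimonabant, and 36.0, 34.3 and 38.5 with TXX-1-10. The 3 groups were fully separated. The log2 fold change was -0.99 ± 0.0630 (SE) for TXX-1-10 against vehicle (adjusted p = 2.31e-07), meaning that FH decreased by 49.8%, just short of 2-fold. Of the 4236 genes, 326 had a lower log2 fold change. Rimonabant lowered FH less, with a log2 fold change of -0.27 ± 0.0618 (SE, adjusted p = 0.00559), and TXX-1-10 lay below rimonabant by a log2 difference of -0.73 (adjusted p = 4.43e-06). The genes whose pair of fold changes against vehicle lay nearest to that of FH, by Euclidean distance over the 4236 genes, were IPO9 (log2 fold change -0.97 with TXX-1-10 and -0.26 with rimonabant), AOX1 (-1.02 and -0.28) and IGFBP7 (-0.98 and -0.29).

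CS catalyses the entry step of the cycle. CS stood at 33.6, 32.5 and 33.2 FPKM with vehicle, at 30.5, 30.9 and 30.1 with rimonabant, and at 23.0, 22.4 and 23.9 with TXX-1-10. Each group kept to a narrow band of its own. The log2 fold change under TXX-1-10 was -0.52 ± 0.0416 (SE, adjusted p = 1.34e-06), so that CS decreased by 30.2%. For rimonabant it was -0.12 ± 0.0414 (adjusted p = 0.0385), and this small fall no longer passed the test when any single vehicle or rimonabant library was left out (adjusted p between 0.0568 and 0.12), nor without TXX-1-10 replicate 1 (adjusted p = 0.0659). The difference between the compounds was -0.40 (adjusted p = 1.61e-05). An antisense gene, AC073896.2, and a second coding gene, AC073896.1, share exon sequence with CS, but their own counts were 15 to 36 and 1 to 5 in the libraries listing them, against 2637 to 3726 for CS.

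Among the members, the isocitrate dehydrogenase genes IDH3A and IDH3B fell by less under TXX-1-10 than CS did. IDH3G, a gene of the same enzyme outside the members, fell by more than CS (log2 fold change -0.68). IDH3A carries the catalytic subunit. Its FPKM was 5.05, 5.57 and 5.58 with vehicle, 5.37 and 4.99 in rimonabant replicates 2 and 3, and 4.56, 4.34 and 4.33 with TXX-1-10. The TXX-1-10 libraries were the lowest, and rimonabant overlapped vehicle. In the fit of 8 libraries the log2 fold change of IDH3A was -0.29 ± 0.0678 (SE, adjusted p = 0.00185) for TXX-1-10 and -0.06 ± 0.0749 (adjusted p = 0.533) for rimonabant. With the sum of the common genes as library size the fall under TXX-1-10 no longer passed (-0.15, adjusted p = 0.0622). The difference between the compounds was -0.23 (adjusted p = 0.0184), which did not pass with TMM factors (adjusted p = 0.0598) or without rimonabant replicate 2 (adjusted p = 0.162).

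IDH3B, the subunit that pairs with IDH3A in the same enzyme, had with DLST the smallest changes under TXX-1-10. The order of IDH3B and DLST turned without vehicle replicate 1, vehicle replicate 2 or TXX-1-10 replicate 3, and without both libraries that fall with length. Values were 43.0, 42.2 and 45.0 FPKM with vehicle, 52.7, 47.3 and 46.3 with rimonabant, and 36.7, 35.9 and 40.3 with TXX-1-10. Rimonabant libraries stood above and TXX-1-10 libraries below those of vehicle. The log2 fold change was -0.21 ± 0.0652 (SE, adjusted p = 0.0157) for TXX-1-10, and this call was lost with TMM factors (log2 fold change -0.11, adjusted p = 0.115) and without vehicle replicate 3 (adjusted p = 0.0599), TXX-1-10 replicate 1 (0.0544) or TXX-1-10 replicate 2 (0.0592). For rimonabant the log2 fold change was 0.17 ± 0.0648 (adjusted p = 0.055), short of the threshold, though past it with TMM factors (adjusted p = 0.0251) and without TXX-1-10 replicate 3 (adjusted p = 0.0281). Without rimonabant replicate 1, one of the libraries that fall with length, it was 0.11 (adjusted p = 0.162). IDH3B was lower with TXX-1-10 than with rimonabant (log2 difference -0.37, adjusted p = 0.000584).

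The oxoglutarate dehydrogenase complex is built around a core of DLST, to which OGDH supplies the substrate-decarboxylating activity. OGDH measured 36.4, 37.5 and 38.8 FPKM with vehicle, 32.4, 31.6 and 32.6 with rimonabant, and 24.5, 25.3 and 24.1 with TXX-1-10. The groups formed 3 separate steps. The log2 fold change of OGDH was -0.61 ± 0.0437 (SE, adjusted p = 5.87e-07) for TXX-1-10, -0.22 ± 0.0433 (adjusted p = 0.00202) for rimonabant, and -0.38 (adjusted p = 3.14e-05) between the compounds. DLST behaved differently under rimonabant. Its FPKM was 51.9, 50.01 and 49.4 with vehicle, 56.1, 56.4 and 55.2 with rimonabant, and 43.2, 42.5 and 44.8 with TXX-1-10. Rimonabant libraries were the highest and TXX-1-10 libraries the lowest. DLST rose with rimonabant, with a log2 fold change of 0.15 ± 0.0422 (adjusted p = 0.0151), and fell with TXX-1-10, with -0.21 ± 0.0424 (adjusted p = 0.00105). The direct difference was -0.36 (adjusted p = 3.85e-05). The rise was not past the threshold without vehicle replicate 2 (adjusted p = 0.0621) or vehicle replicate 3 (adjusted p = 0.0554). With TMM factors the fall of DLST was -0.11 (adjusted p = 0.0215) and its rise 0.16 (adjusted p = 0.00662). With the sum of the common genes as library size, the fall was -0.04 (adjusted p = 0.327) and the rise 0.22 (adjusted p = 0.000877).

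Succinate-CoA ligase joins a shared alpha subunit, SUCLG1, to a beta subunit that sets the nucleotide, with SUCLA2 for ATP. SUCLG1 measured 14.2, 13.9 and 13.1 FPKM with vehicle, 15.4, 15.1 and 14.6 with rimonabant, and 10.0, 9.77 and 12.2 with TXX-1-10. The third TXX-1-10 library, one of those that fall with length, stood above the other two. The log2 fold change of SUCLG1 was -0.36 ± 0.0828 (SE, adjusted p = 0.00271) for TXX-1-10 and 0.13 ± 0.0815 (adjusted p = 0.202) for rimonabant, with a difference of -0.49 between the compounds (adjusted p = 0.000448). Without TXX-1-10 replicate 3, which enters the shared estimate of spread, the rimonabant value of SUCLG1 had an adjusted p of 0.0497. SUCLA2 measured 3.42, 3.40 and 3.34 FPKM with vehicle, 3.13 and 3.14 in rimonabant replicates 2 and 3, and 2.27, 2.08 and 2.28 with TXX-1-10. It fell with TXX-1-10, with a log2 fold change of -0.62 ± 0.0688 (adjusted p = 4.40e-06), while that for rimonabant was -0.11 ± 0.0746 (adjusted p = 0.237). TXX-1-10 lay below rimonabant by -0.51 (adjusted p = 0.000113). SUCLA2 had 341 to 525 counts in 8 libraries. Its exons overlap those of another gene and the strand setting of the counting is not given in the sources used here, so the counts of SUCLA2 are uncertain.

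MDH2 closes the cycle by oxidising malate. Values were 64.9, 67.9 and 69.1 FPKM with vehicle, 68.3, 54.0 and 57.5 with rimonabant, and 49.96, 49.88 and 60.9 with TXX-1-10. The high values within the treated groups are those of rimonabant replicate 1 and TXX-1-10 replicate 3, the libraries whose counts fall with length. The log2 fold change was -0.33 ± 0.0985 (SE, adjusted p = 0.0118) for TXX-1-10, -0.17 ± 0.0983 (adjusted p = 0.187) for rimonabant, and -0.16 between the compounds (adjusted p = 0.175). The 95% interval of that last difference ran from -0.35 to 0.03. Without rimonabant replicate 1 the rimonabant value was -0.27 (adjusted p = 0.0244), and with a correction for gene length it was -0.18 (adjusted p = 0.0188). The difference between the compounds was -0.06 (adjusted p = 0.575) without rimonabant replicate 1 and -0.26 (adjusted p = 0.0189) without TXX-1-10 replicate 3. Without both it was -0.16 (adjusted p = 0.0034), and with the correction for gene length -0.04 (adjusted p = 0.525).

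**Figure D2:**
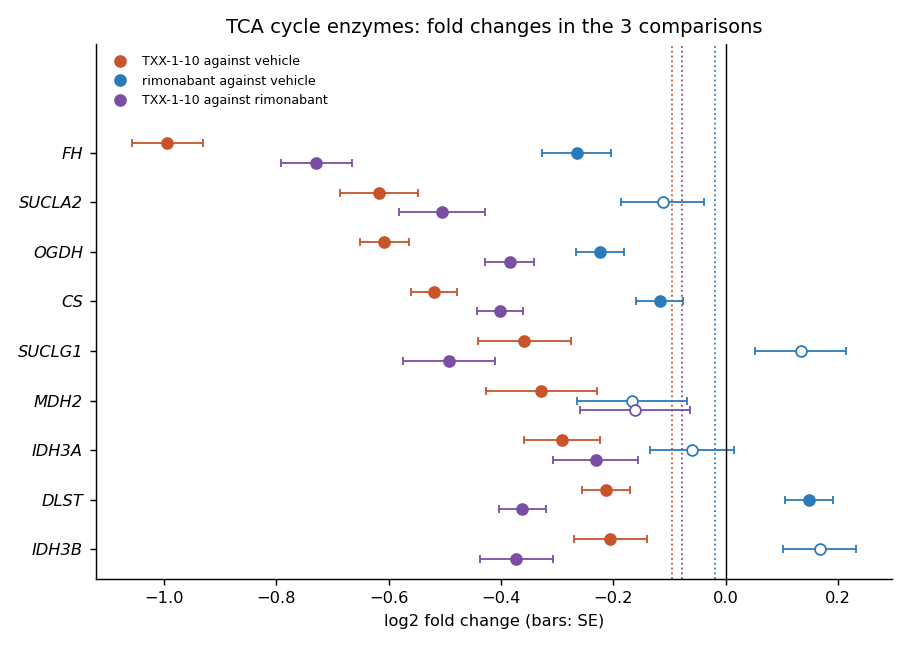
Log2 fold changes (horizontal axis) of the 9 enzymes in the 3 comparisons, ordered by the change under TXX-1-10. Bars are SE, filled points have an adjusted p under 0.05, dotted lines mark the median of the 4236 tested genes for the comparison of that colour. Every value for TXX-1-10 against vehicle is negative, between -0.99 for FH and -0.21 for IDH3B, and the rimonabant values lie on both sides of 0.

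Rimonabant produced small and mixed changes in the same genes. In the 9-library fit, 3 of 7 members fell (FH, OGDH and CS), against 25.2% of all tested genes, and 1 rose (DLST), against 23.7%. The other 3 did not pass the test. The median of the 7 was -0.12, beside -0.02 over all genes. In the wider fit 3 of 9 fell (FH, OGDH and MDH2, while CS had an adjusted p of 0.0847) and 1 rose, against 22.8% and 23.7% of genes. The count of 4 past the threshold became 2 without vehicle replicate 2 or vehicle replicate 3, where CS and DLST no longer passed. The shares over all genes were then 20% lower and 19% higher, or 21.5% lower and 19.5% higher. Without both libraries that fall with length the count was 6, with 4 lower and 2 higher. The shares over all genes then rose to 38% lower and 30.7% higher.

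Compared directly, TXX-1-10 libraries held less of these transcripts than rimonabant libraries. In the 9-library fit, 6 of 7 members were lower with TXX-1-10 and MDH2 was the exception, against 39.4% of all tested genes. In the wider fit it was 8 of 9, against 33.9%. The median log2 difference of the 7 members was -0.38, beside -0.08 over all genes. With both libraries that fall with length left out, 7 of 7 were lower, against 45.8% of all genes. The comparisons with vehicle use the same 3 vehicle libraries, so that their values for a gene are not independent.

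The scaling of the libraries set part of the size of these changes. With TMM factors the median log2 fold change of all genes for TXX-1-10 moved from -0.09 to 0.00, and calls moved from 1294 higher and 1857 lower to 1568 and 1570. With the sum of the counts of the common genes as library size it moved to 0.08, with 1784 higher and 1344 lower. Log2 fold changes under TXX-1-10 were also taken relative to the median of all genes. In the 9-library fit (median -0.09) they were -0.90 for FH, -0.51 for OGDH, -0.42 for CS and -0.26 for SUCLG1. They were -0.23 for MDH2, -0.12 for DLST and -0.11 for IDH3B. In the wider fit, with a median of -0.04, they were -0.58 for SUCLA2 and -0.25 for IDH3A. TMM factors left 6 of 7 past the threshold, against 37.1% of all tested genes lower. The sum of the common genes left 4 of 7 (FH, OGDH, CS and SUCLG1), against 31.7% of all tested genes lower. Every log2 fold change of the members stayed negative.

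Partners within an enzyme were compared through the ratio of their FPKM in the same library, which does not depend on library size. A trend of counts with gene length can still shift such a ratio where the partners differ in length. The ratio of OGDH to DLST was 0.701, 0.750 and 0.786 with vehicle, 0.577, 0.560 and 0.590 with rimonabant, and 0.567, 0.596 and 0.539 with TXX-1-10. Both compounds lowered it below every vehicle library, to means of 0.575 ± 0.0148 (SD, n = 3) and 0.567 ± 0.0287, from 0.746 ± 0.0426. The differences in log2 ratio were -0.37 for rimonabant and -0.39 for TXX-1-10, and each had p = 0.1 in an exact two-sided permutation test, the smallest p that 3 against 3 libraries allow. The adjusted p over the 9 ratio tests was 0.3. Between the compounds the log2 ratios differed by -0.02 (exact permutation p = 0.7). OGDH and DLST thus each differed between the compounds, whereas the difference in their ratio was within the spread between libraries.

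The ratio of SUCLA2 to SUCLG1 was 0.241, 0.246 and 0.255 with vehicle, 0.208 and 0.215 in rimonabant replicates 2 and 3, and 0.226, 0.213 and 0.186 with TXX-1-10. Treated libraries lay below those of vehicle, with a log2 difference of -0.25 for TXX-1-10 (exact permutation p = 0.1) and -0.23 for rimonabant (p = 0.2, the smallest that 2 against 3 libraries allow in the exact permutation test). With 1 library left out, the TXX-1-10 difference ranged from -0.31 to -0.17. SUCLA2 (8928 bases) is longer than SUCLG1 (4286 bases), and TXX-1-10 replicate 3, whose counts fall with length, had the lowest ratio. For IDH3A to IDH3B the ratios were 0.117, 0.132 and 0.124 with vehicle, 0.114 and 0.108 with rimonabant, and 0.124, 0.121 and 0.107 with TXX-1-10. The TXX-1-10 libraries overlapped vehicle (log2 difference -0.08, exact permutation p = 0.5). Replicate 3 was again the lowest TXX-1-10 library, and IDH3A (6832 bases) is longer than IDH3B (2567 bases). The exact permutation test cannot pass 0.05 with this number of libraries.

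**Figure D3:**
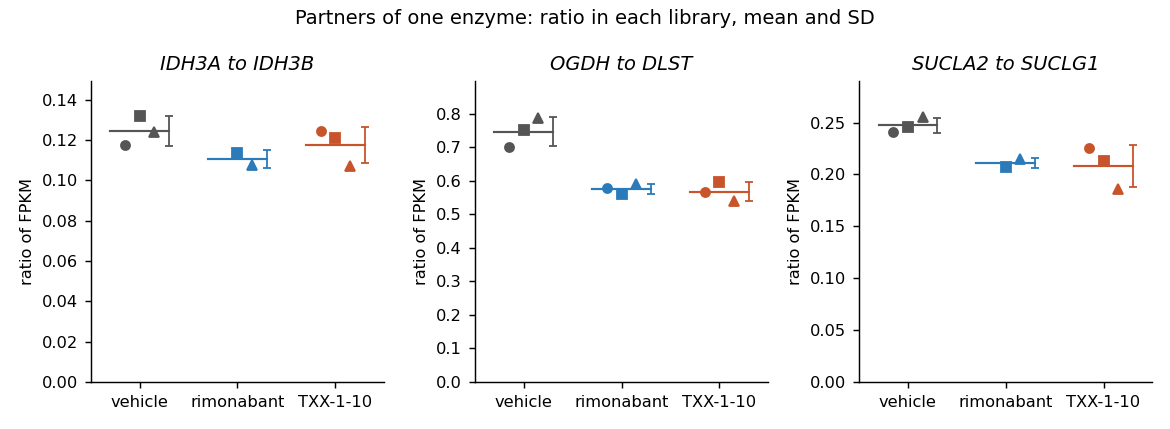
Ratio of FPKM between partners of an enzyme (vertical axes, starting at 0) in each library, with the mean as a line and SD as a bar; symbols mark replicate numbers as circle, square and triangle for 1, 2 and 3. The OGDH to DLST ratio is near 0.57 with either compound and 0.746 with vehicle.

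Sequence upstream of the members is shown because the 9 genes all fell under TXX-1-10. RefSeq promoter windows (GRCh38.p14, the 250 bases before the annotated start) were matched for 8 members, and the stretches that lie outside annotated coding-gene exons are given for the largest falls with an entry (FH, SUCLA2 and CS) and for the smallest (DLST and IDH3B). Capitals mark whole matches on either strand to 4 short motifs. These are the CCAAT box, searched as its name spells it, the ETS core bound by factors such as GABPA, searched as CCGGAAG, the GC box of SP-family factors, searched as GGGCGG, and the half-site of estrogen-related receptors, searched as AAGGTCA. No 2 matches overlapped.
FH (chr1:241519762-241520005, minus strand): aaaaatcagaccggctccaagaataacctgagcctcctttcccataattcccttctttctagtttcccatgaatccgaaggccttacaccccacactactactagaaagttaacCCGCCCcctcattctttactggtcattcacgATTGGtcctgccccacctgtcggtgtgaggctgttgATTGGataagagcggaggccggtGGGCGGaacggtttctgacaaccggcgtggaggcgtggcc
SUCLA2 (chr13:48001355-48001523, minus strand): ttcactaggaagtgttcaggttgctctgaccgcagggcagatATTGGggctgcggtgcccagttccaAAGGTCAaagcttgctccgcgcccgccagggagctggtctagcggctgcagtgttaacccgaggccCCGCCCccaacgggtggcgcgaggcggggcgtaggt
CS (chr12:56300393-56300580, minus strand): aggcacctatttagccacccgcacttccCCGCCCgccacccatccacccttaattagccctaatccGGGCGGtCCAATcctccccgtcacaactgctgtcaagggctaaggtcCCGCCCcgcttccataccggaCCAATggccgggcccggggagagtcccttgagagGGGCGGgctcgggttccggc
DLST (chr14:74881666-74881890, plus strand): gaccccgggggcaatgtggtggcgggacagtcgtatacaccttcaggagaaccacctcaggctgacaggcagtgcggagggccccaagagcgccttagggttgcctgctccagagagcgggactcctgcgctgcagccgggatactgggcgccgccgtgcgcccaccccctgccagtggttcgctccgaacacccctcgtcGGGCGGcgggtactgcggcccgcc
IDH3B (chr20:2664220-2664466, minus strand): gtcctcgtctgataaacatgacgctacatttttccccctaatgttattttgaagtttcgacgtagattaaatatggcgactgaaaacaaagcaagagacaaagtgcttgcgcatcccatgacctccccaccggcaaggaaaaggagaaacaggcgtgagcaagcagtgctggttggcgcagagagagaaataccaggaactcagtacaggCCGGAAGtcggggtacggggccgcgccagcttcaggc

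Over the full windows of 250 bases, the CCAAT box was present in 3 of the 8 members (FH, CS and SUCLA2) and in 32.0% of all 35116 promoters. The ETS core was present in 3 of the 8 (DLST, IDH3B and MDH2) and in 8.52% of promoters, and the GC box in 5 of the 8 and 42.6% of promoters. The receptor half-site was found for SUCLA2 and no other member, and in 3.44% of promoters. These matches describe letters in the windows only.

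The remaining enzymes of the cycle gave a split picture under TXX-1-10. Of 8 further genes of the cycle, 5 fell, 0 rose and 3 did not pass the test in the wider fit, with a median log2 fold change of -0.68 beside -0.04 over all genes. Over all 9369 genes of that fit, 40.6% fell and 34.7% rose. IDH2, the mitochondrial NADP-dependent isocitrate dehydrogenase, fell most, from 7.45, 7.79 and 7.57 FPKM to 3.21, 3.05 and 3.49 (log2 fold change -1.23 ± 0.0835, SE, adjusted p = 4.86e-08). DLD, which re-oxidises the lipoyl groups of both the oxoglutarate and the pyruvate dehydrogenase complexes, had a log2 fold change of -0.95 ± 0.0494 (SE, adjusted p = 5.80e-08). SUCLG2 (-0.87, adjusted p = 5.89e-08), IDH3G (-0.68, adjusted p = 1.57e-05) and SDHA, the flavin subunit of succinate dehydrogenase (-0.67, adjusted p = 1.59e-06), fell as well. Of the other subunits of succinate dehydrogenase, SDHB (log2 fold change -0.17), SDHC (-0.11) and SDHD (-0.04) did not pass the test. The signs of SDHC and SDHD turned positive under other scalings. Without both libraries that fall with length, all 3 passed as lower, SDHB at -0.27 (adjusted p = 0.000632), SDHC at -0.16 (adjusted p = 0.0128) and SDHD at -0.12 (adjusted p = 0.0411). SDHB also passed without TXX-1-10 replicate 3 (-0.27, adjusted p = 0.033) and SDHC without vehicle replicate 3 (-0.18, adjusted p = 0.0344). With rimonabant, 2 of these 8 genes fell and 0 rose in the wider fit, against 22.8% and 23.7% of all genes. Of the 5 tested in the 9-library fit, 0 fell and 0 rose, against 25.2% and 23.7%. SUCLG2 was one of those that fell in the wider fit (log2 fold change -0.65, adjusted p = 1.83e-05). SUCLG2, the GTP-linked partner of SUCLG1, stood at 24.1, 23.1 and 22.8 FPKM with vehicle, 14.8 and 15.0 with rimonabant, and 12.8, 11.9 and 13.6 with TXX-1-10.

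Genes for pyruvate entry moved in both directions under TXX-1-10, with 6 lower, 4 higher and 2 not past the test among 12 tested of 13. Over all genes of that wider fit, 40.6% fell and 34.7% rose. The median log2 fold change of the list was -0.17, beside -0.04 over all genes. The pyruvate dehydrogenase subunits PDHB (log2 fold change -0.92, adjusted p = 7.74e-07) and DLAT (-0.69, adjusted p = 9.85e-07) and the pyruvate carrier subunit MPC2 (-0.66, adjusted p = 0.000185) fell. PDP1, a phosphatase that activates pyruvate dehydrogenase, rose from 7.47, 8.19 and 7.44 FPKM to 16.1, 16.6 and 16.0 (log2 fold change 1.08, adjusted p = 6.74e-09). The inhibiting kinases PDK1 and PDK4, named here after their values were seen, moved in opposite directions under the 2 compounds. PDK1 rose with rimonabant (log2 fold change 0.53, adjusted p = 0.00118) and fell with TXX-1-10 (-0.54, adjusted p = 0.000311), whereas PDK4 fell with rimonabant (-0.62, adjusted p = 0.00106) and rose with TXX-1-10 (0.46, adjusted p = 0.000837). Direct differences between the compounds were -1.07 for PDK1 (adjusted p = 2.80e-06) and 1.08 for PDK4 (adjusted p = 5.68e-06). Rimonabant lowered PDHB (-0.24, adjusted p = 0.0135). In the wider fit, 2 of the 12 tested genes of this list fell and 2 rose with rimonabant, against 22.8% and 23.7% of all genes.

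All 14 genes that fill or drain the cycle passed the test under TXX-1-10, 8 lower and 6 higher, in a fit where 40.6% of all genes fell and 34.7% rose. PC, pyruvate carboxylase, which makes oxaloacetate from pyruvate, fell from 7.53, 7.59 and 8.20 FPKM to 3.03, 2.71 and 3.14 (log2 fold change -1.39, adjusted p = 7.16e-09), and it also fell with rimonabant (-0.57, adjusted p = 0.000184). ACO1, the cytosolic aconitase, fell with TXX-1-10 (log2 fold change -1.05, adjusted p = 1.10e-08) and with rimonabant (-0.33, adjusted p = 0.000172). PCK2, which turns mitochondrial oxaloacetate into phosphoenolpyruvate, rose with TXX-1-10 (log2 fold change 1.09, adjusted p = 8.77e-08) and with rimonabant (0.62, adjusted p = 0.000175). IDH1, the cytosolic isocitrate dehydrogenase, rose with both (0.93, adjusted p = 7.19e-09, and 0.34, adjusted p = 0.000557). IDH1 thus rose under TXX-1-10 while IDH2, IDH3A, IDH3B and IDH3G fell. GPT2, mitochondrial alanine transaminase, which was also named after its values were seen, had a log2 fold change of 0.71 with either compound (adjusted p = 3.61e-07 with TXX-1-10). With rimonabant, 5 of these genes fell, 5 rose and 4 did not pass, against 22.8% lower and 23.7% higher over all genes.

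Among the carriers of the inner membrane, 4 of 5 tested genes fell with TXX-1-10 in the wider fit, against 40.6% of all genes, and 1 did not pass. Their median was -0.64, beside -0.04 over all genes. The carriers that fell include SLC25A11, the oxoglutarate-malate carrier (log2 fold change -0.97, adjusted p = 1.08e-06), SLC25A12, an aspartate-glutamate carrier (-0.69, adjusted p = 3.96e-06), and SLC25A1, the citrate carrier (-0.64, adjusted p = 6.16e-05). SLC25A11 also fell with rimonabant (-0.32, adjusted p = 0.00526). Of 6 tested genes that control nuclear-encoded mitochondrial genes, 3 fell, 2 rose and 1 did not pass in the wider fit. Over all genes of that fit, 40.6% fell and 34.7% rose, so these counts set the list little apart. ESRRA, the estrogen-related receptor alpha, rose with TXX-1-10 (log2 fold change 0.60, adjusted p = 5.77e-05), while the coactivator genes PPARGC1B (-0.66, adjusted p = 0.000206) and PPRC1 (-0.45, adjusted p = 0.00149) fell. Rimonabant lowered PPARGC1B (-0.95, adjusted p = 0.000147) and PPRC1 (-0.64, adjusted p = 0.00041).

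Of 10 genes for general mitochondrial proteins, 8 fell and 2 rose with TXX-1-10 in the 9-library fit, against 43.8% lower and 30.5% higher over all genes, with a median log2 fold change of -0.40 beside -0.09. The outer-membrane import pore TOMM40 (log2 fold change -0.74, adjusted p = 7.03e-06), the channel VDAC3 (-0.72, adjusted p = 2.28e-05) and the import receptor TOMM22 (-0.60, adjusted p = 5.65e-05) fell. LONP1, the matrix protease, rose with TXX-1-10 (0.75, adjusted p = 1.30e-06) and with rimonabant (0.27, adjusted p = 0.00434). HSPA9, a matrix chaperone gene named after its values were seen, was the other that rose with TXX-1-10 (0.58, adjusted p = 3.94e-06). With rimonabant, 0 of these 10 fell and 2 rose in the 9-library fit (25.2% and 23.7% of all genes), whereas 2 fell and 2 rose in the wider fit (22.8% and 23.7%). The 3 lipoylation genes were listed for too few libraries to be tested.

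**Figure D4:**
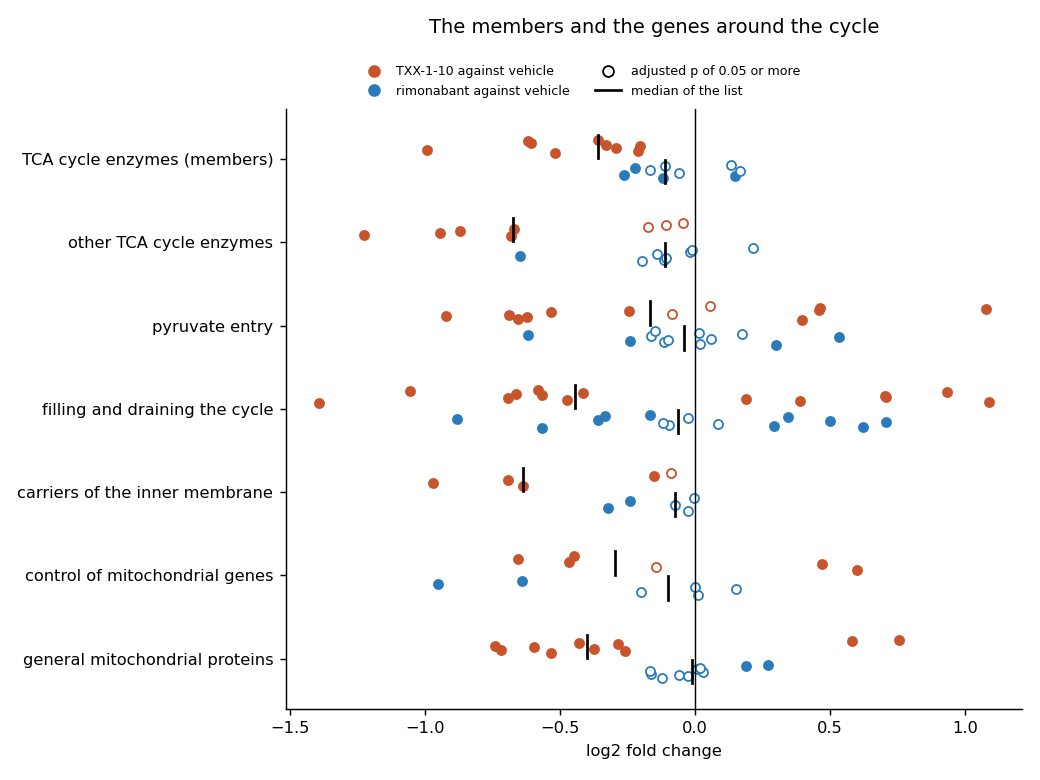
Log2 fold changes against vehicle (horizontal axis) of the 9 members and of the tested genes of 6 lists around the cycle. Each point is a gene, open where the adjusted p was 0.05 or more, and black bars are list medians. TXX-1-10 medians lie at -0.36 for the members and -0.68 for the other enzymes of the cycle, and the lists that fill the cycle, admit pyruvate or control mitochondrial genes spread to both sides of 0.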

How the data were processed

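Polyadenylated RNA of 9 MDA-MB-231 libraries was sequenced. Per the submitters' processing notes, HISAT2 2.0.5 and featureCounts 1.5.0-p3 were used. The authors deposited whole-number counts per gene without normalization, and FPKM values that the authors made from count, gene length and a library total. Coordinates and lengths equal GENCODE release 29 (GRCh38) for all 27615 genes. Dividing each count by its FPKM and length gave back that total, which served as library size. Which reads it holds is not given in the sources used here. Each list breaks off within its last line, and that partial line was dropped.

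Genes listed for all 9 libraries with a mean FPKM of at least 1 (4236 genes) were tested with edgeR 4.0.16 in R 4.3.3 (glmQLFit, glmQLFTest, Benjamini-Hochberg) in a single fit of the 3 groups. A wider fit without rimonabant replicate 1 held 9369 genes and served genes missing from that list. The SE is the log2 fold change divided by the square root of F, and is approximate. Ratios were tested with exact permutation tests in scipy 1.17.1. Alternatives used limma 3.58.1 on log2(FPKM + 1) and log2(FPKM + 0.1), DESeq2 1.42.0, other scalings and filters, a lowess correction for gene length (span 0.3), the replicate block and each library left out. Replicate libraries differed by more than sampling noise (chi-square per degree of freedom between 2.29 and 42.2), so none was treated as a repeat deposit of another. Such a spread does not show that they came from separate cultures.

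The members and the 7 gene lists were chosen with earlier results of these data known. Named were all members, every tested gene of the list of other cycle enzymes (1 further gene of that list is not reported here), and in each other list at most 4 genes with an adjusted p under 0.05 and a log2 fold change of 0.5 or more in size in any comparison, ordered by the change under TXX-1-10, plus the 3 genes nearest to the member that changed most. Exceptions are marked where they are named.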

Additional observations from a re-analysis of the deposited data

How the results depend on the processing

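Of 597 recomputed log2 fold changes of the members, 546 kept their direction and their side of the threshold, 32 lost the call, 18 gained it and 1 turned, IDH3A with rimonabant, at 0.0139 with the sum of the common genes as library size. With that library size the count of members past the threshold for TXX-1-10 against vehicle was 4 of 7, beside 31.7% of all genes lower. The median of all genes also moves up with that library size. With 1 library left out, the count ranged from 6 to 7 for TXX-1-10 against vehicle, beside 41% to 46% of all genes lower. For rimonabant against vehicle it ranged from 2 to 6, beside 20% to 29.2% of genes lower and 19% to 27% higher. Both shares were highest without TXX-1-10 replicate 3, the setting with 6 members. For TXX-1-10 against rimonabant the count ranged from 6 to 7, beside 34.8% to 42.2% of genes lower. Under the replicate block the counts were 7, 3 and 6, CS being the rimonabant call that was lost. The shares of all genes were then 43.1% lower, 23% lower with 21.7% higher, and 37.9% lower. Under the length correction with the block the counts were 6, 5 and 6. The shares beside these were 39.6% lower, 27.7% lower with 29.5% higher, and 35.4% lower. Whether replicate numbers pair the samples could not be decided. Deviations of same-numbered libraries correlated between -0.0759 and 0.0437 with vehicle and at -0.79, 0.828 and -0.614 between the compounds. In the rimonabant and TXX-1-10 libraries these deviations hold the trend with gene length, so the correlations can neither show nor exclude pairing. For genes beside the members under TXX-1-10, the log2 fold change turned positive for SDHC (0.0648) with the sum of the common genes, for SDHC with the length correction (0.00745, and 0.00719 with the block), and for SDHD with TMM factors (0.0534), DESeq2 size factors (0.055), the DESeq2 test (0.055), the sum of the common genes (0.126) and the length correction (0.091, and 0.0921 with the block). With 1 library left out, the difference between the compounds in log2 ratio ranged from -0.0587 to 0.0142 for OGDH to DLST and from -0.0858 to 0.054 for SUCLA2 to SUCLG1, turning positive without TXX-1-10 replicate 3. Genes with few reads and those past the end of the shorter lists are not analysed here, and the lowest member, SUCLA2, rests on 341 to 525 counts a library.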

Other observations

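Genes around the cycle that were listed for too few libraries to be tested are given by their values. SLC25A10, the mitochondrial dicarboxylate carrier, stood at 5.88 and 5.98 FPKM in vehicle replicates 1 and 3, at 3.75 and 3.83 in rimonabant replicates 2 and 3, and at 1.86, 1.58 and 1.47 in the TXX-1-10 libraries. LIPT1, a lipoyltransferase whose product is needed by the pyruvate and oxoglutarate dehydrogenase complexes, stood at 2.03 and 1.81 FPKM with vehicle, 2.12 and 1.87 with rimonabant, and 3.07, 3.41 and 4.43 with TXX-1-10 in the same libraries. PPARGC1A, a coactivator of mitochondrial genes, stood at 0.770 and 0.604 FPKM with vehicle, 0.841 and 0.814 with rimonabant, and 2.1, 1.85 and 1.90 with TXX-1-10. LIAS, the lipoyl synthase, stood at 0.719 and 0.747 FPKM with vehicle and at 0.539 and 0.690 with rimonabant. With TXX-1-10 it ranged between 0.548 and 0.593 FPKM. LIPT2 stood at 0.839 and 0.734 FPKM with vehicle, 0.546 in rimonabant replicate 3, and 0.183 and 0.549 in TXX-1-10 replicates 2 and 3. PDK3 stood at 1.68 and 1.3 FPKM with vehicle, 1.33 and 1.38 with rimonabant, and 1.09, 1.44 and 0.834 with TXX-1-10. Only 2 vehicle libraries list these genes, and no test was made for any of them.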
